A study of Mus musculus with 6 samples.

Results

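Cytokine receptors of the common gamma chain family and 3 receptors for inflammatory cytokines were followed in CD8 T cells of mouse spleen, the T cells that kill infected and tumour cells. The 10 genes were Il2ra, Il2rb, Il2rg, Il7r, Il4ra, Il21r, Il15ra, Il6ra, Il12rb2 and Il18r1, matched by symbol in the authors' full table, and all 10 were found among its 17744 genes. Cells carrying CD45, CD3 and CD8a had been sorted by flow cytometry from 3 control samples, labelled wild type, and from 3 samples labelled as irradiated with focused ultrasound (here called ultrasound samples), meaning exposure to sound focused into a small volume. The genotype entry of the ultrasound samples repeats the treatment, and the labels give no strain, age, sound dose or interval and do not say whether animals were pooled. The replicates are taken from the sample titles, so p-values measure the spread between these samples, which may be technical.

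The gamma chain encoded by Il2rg is shared by the receptors for interleukins 2, 4, 7, 9, 15 and 21, and each receptor adds a private chain that sets which cytokine is bound. The signal runs through the kinases JAK1 and JAK3 to STAT transcription factors and supports the survival, division and differentiation of T cells. Interleukin 7 keeps naive T cells alive, interleukin 15 maintains memory CD8 T cells, and interleukins 12 and 18 act together to raise interferon gamma. Several of these receptor genes are also used by B cells, NK cells, regulatory T cells and myeloid cells.

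Each library held 35024080 to 38113103 recovered reads. The ultrasound samples were not alike. Reads of mitochondrial genes made up 2.05% to 2.70% of each control library and 2.19% of ultrasound 1, but 0.954% of ultrasound 2 and 0.937% of ultrasound 3. T cell markers were present in all 6 libraries, with Cd3e at 165 to 310 FPKM and Cd8a at 251 to 314 FPKM. The summed level of 9 T cell markers was 2375 to 2501 FPKM in the controls and 2055, 2675 and 2436 FPKM in ultrasound 1, 2 and 3. FPKM are fragments scaled to gene length and library depth, so levels can be compared between genes.

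Of the 10 receptor genes, 1 differed between the groups at an adjusted p under 0.05 in the limma fit over all genes. This was Il12rb2, which was higher in ultrasound samples, while the other 9 had limma adjusted p from 0.126 to 0.954. Over all 10655 genes tested, 8.11% passed, 6.55% of all genes as higher and 1.56% as lower, so the share of receptor genes that passed was near that of all genes. The median difference in log2(FPKM + 1) was 0.05 over the 10 receptor genes, 6 of them above 0, and 0.09 over all genes tested. An unadjusted p under 0.05 was reached by 3 of the 10, against 31.2% of all genes. The groups did not overlap for 3 of the 10, against 34.8% of all genes.

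**Figure D1:**
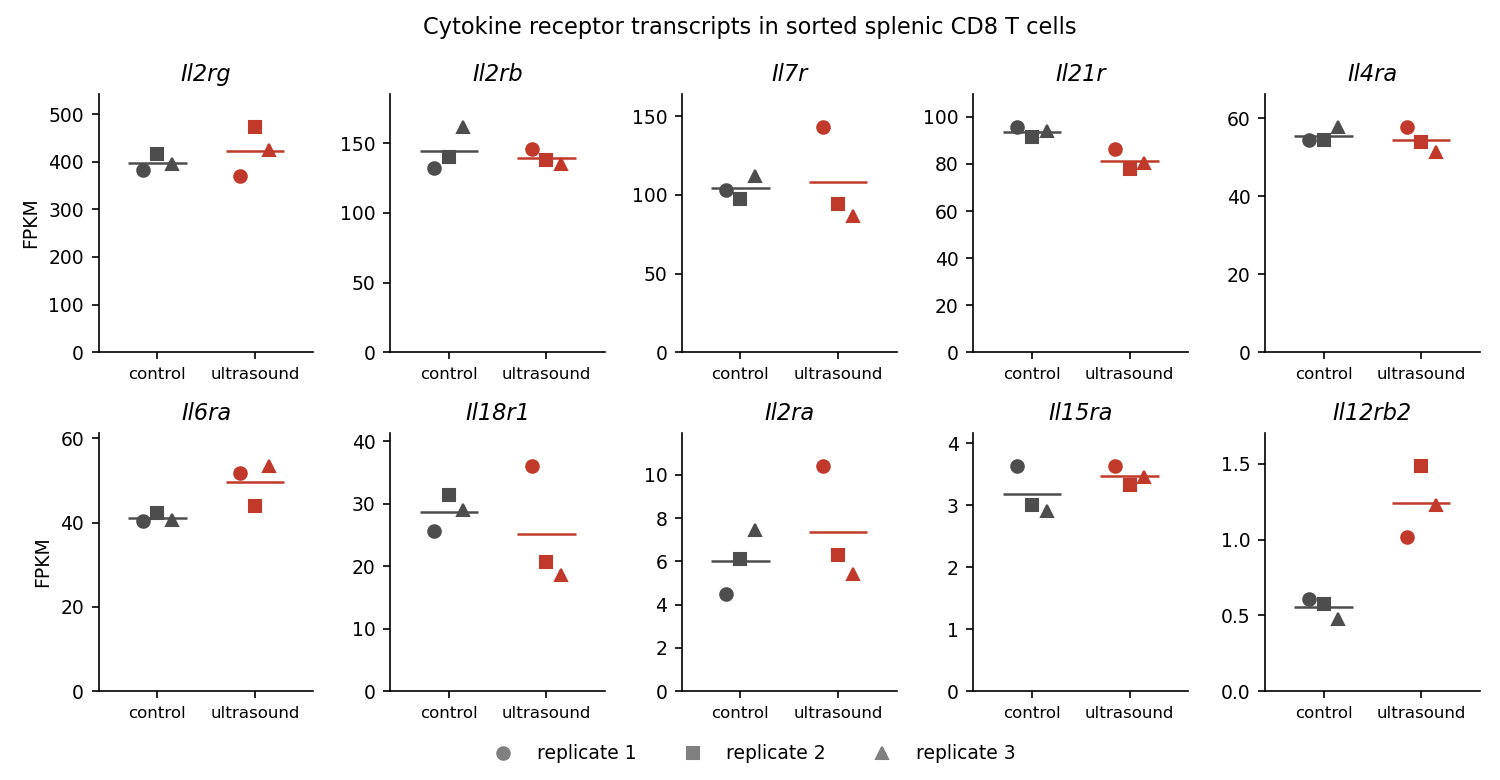
FPKM of the 10 receptor genes in each of 6 libraries (y axis from 0, one panel per gene, ordered by mean level), where grey points are control and red points ultrasound samples, the marker shape gives the replicate number, and the horizontal lines are group means. Il12rb2, Il6ra and Il21r have groups that do not overlap, and ultrasound 1 lies above the other libraries for Il7r, Il18r1 and Il2ra.

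The levels spanned a wide range. Il2rg was the most abundant of the 10, at 370 to 472 FPKM. It was followed in order of mean level by Il2rb at 133 to 162 FPKM, Il7r at 86.3 to 143 FPKM and Il21r at 77.7 to 95.6 FPKM. Il4ra lay at 51.4 to 57.7 FPKM, Il6ra at 40.3 to 53.3 FPKM and Il18r1 at 18.6 to 36.0 FPKM. The 3 lowest were Il2ra at 4.51 to 10.4 FPKM, Il15ra at 2.90 to 3.63 FPKM and Il12rb2 at 0.477 to 1.48 FPKM. The ranges of neighbours in this order overlapped for Il2rb and Il7r, for Il7r and Il21r, and for Il4ra and Il6ra. Within a library, Il2rb was above Il7r and Il7r above Il21r in 6 of 6 libraries, and Il4ra was above Il6ra in 5 of 6.

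The shared chain and the beta chain came first. Il2rg (NCBI Gene 16186) had 382, 416 and 395 FPKM in control 1, 2 and 3 and 370, 472 and 425 FPKM in ultrasound 1, 2 and 3. Ultrasound 2 and 3 were above every control and ultrasound 1 was below every control. The difference in log2(FPKM + 1) was 0.08 with a standard error of 0.11, and it turned to -0.04 with median-of-ratios size factors. In the GENCODE M21 annotation Il2rg shares 30.5% of its exonic bases with Gm20489, an annotated gene on the same strand, which may affect its read count. Il2rb (NCBI Gene 16185), the signalling chain shared by the receptors for interleukins 2 and 15, had 133, 140 and 162 FPKM in the controls and 146, 138 and 135 FPKM in ultrasound 1, 2 and 3. All 3 ultrasound values lay within the control range, and the 95% interval of the log2 difference ran from -0.29 to 0.20.

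The alpha chains that raise the affinity for interleukins 2 and 15 were low. Il2ra (NCBI Gene 16184), the high affinity chain CD25 of activated and regulatory T cells, had 4.51, 6.10 and 7.44 FPKM in the controls and 10.4, 6.28 and 5.40 FPKM in ultrasound 1, 2 and 3. Only ultrasound 1 was above the controls, and the 95% interval of the log2 difference, from -0.37 to 0.83, was the widest of the 10. Foxp3, the defining factor of regulatory T cells, was also highest in ultrasound 1, with 8.78, 12.6 and 12.9 FPKM in the controls and 22.5, 12.8 and 14.8 FPKM in ultrasound 1, 2 and 3. Of the 6 markers of regulatory and CD4 T cells, Foxp3 among them, 3 had a log2 difference above 0 and 3 below. They summed to 160, 184 and 189 FPKM in the controls and 189, 117 and 151 FPKM in ultrasound 1, 2 and 3. None was at 0 in all libraries. The median marker differed from the control mean by 0.13, -0.08 and 0.26 in ultrasound 1, 2 and 3, in log2(FPKM + 1). The part of these cells in the Il2ra values was not tested. In bulk samples, fewer cells of a type and less RNA per cell cannot be told apart. Il15ra (NCBI Gene 16169), which holds interleukin 15 for presentation to other cells, had 3.63, 3.01 and 2.90 FPKM in the controls and 3.63, 3.32 and 3.45 FPKM in ultrasound 1, 2 and 3. The groups overlapped, with a 95% interval of the log2 difference from -0.16 to 0.36. Il2ra and Il15ra are neighbours on chromosome 2, 11977 bases apart in the RefSeq annotation of GRCm38.p6, the assembly of the mm10 build.

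Il7r (NCBI Gene 16197), the alpha chain for interleukin 7 and a marker of naive and memory T cells, had 103, 97.6 and 112 FPKM in the controls and 143, 94.5 and 86.3 FPKM in ultrasound 1, 2 and 3. Ultrasound 1 was above every control, and ultrasound 2 and 3 were below every control. The log2 difference was 0.02 with a standard error of 0.19. Its direction depended on scaling and libraries, at -0.11 with median-of-ratios size factors and -0.20 without ultrasound 1.

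The chains for interleukins 4 and 21 lie side by side on chromosome 7, 23777 bases apart. Il4ra (NCBI Gene 16190) had 54.4, 54.3 and 57.7 FPKM in the controls and 57.7, 53.9 and 51.4 FPKM in ultrasound 1, 2 and 3. It varied little among the 6 libraries, and the 95% interval of the log2 difference ran from -0.23 to 0.17. Il21r (NCBI Gene 60504) had 95.6, 91.3 and 94.1 FPKM in the controls and 86.2, 77.7 and 80.5 FPKM in ultrasound 1, 2 and 3. Every ultrasound sample was below every control, which held for 8.96% of all genes tested. Its group means were 93.7 ± 2.19 and 81.4 ± 4.33 FPKM (SD, n = 3 each), a log2 difference of -0.20 with a standard error of 0.08 and a limma adjusted p of 0.152. In the authors' deposited table Il21r has a log2 fold change of -0.33 and a q of 0.0170, where 12.3% of genes have q under 0.05. B cells carry both receptors, and the 10 B cell markers summed to 266 to 405 FPKM in the controls and 195, 1069 and 927 FPKM in ultrasound 1, 2 and 3. Their part in the Il21r values was not tested.

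Among the inflammatory receptors, Il12rb2 (NCBI Gene 16162) encodes the signalling chain for interleukin 12, which naive T cells express at a low level and gain on activation. It had 0.609, 0.573 and 0.477 FPKM in the controls and 1.02, 1.48 and 1.23 FPKM in ultrasound 1, 2 and 3. Every ultrasound sample was above every control, as for 25.9% of all genes tested. The group means were 0.553 ± 0.0685 and 1.24 ± 0.234 FPKM (SD, n = 3 each), a ratio of 2.25. The limma log2 difference on the log2(FPKM + 1) scale was 0.53 with a standard error of 0.12 and an adjusted p of 0.0454, and it was 1.03 with a pseudocount of 0.1. The values rest on 179, 167 and 140 reads in the controls and 298, 463 and 390 reads in ultrasound 1, 2 and 3.

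Il12rb2 entered the test only through the ultrasound samples, since no control reached 1 FPKM. With at least 10 reads required in every library, which it met in both groups, its limma adjusted p was 0.0374, where 6.05% of genes passed. It also passed with a pseudocount of 0.1, where 8.02% of genes passed, and without robust fitting (8.34%). The same held without mitochondrial, hemoglobin and immunoglobulin genes (9.01%) and with voom on recovered reads (5.38%). It did not pass with median-of-ratios size factors (limma adjusted p 0.0608, where 4.39% of genes passed), with upper-quartile factors (0.0600, 5.42%) or without a filter (0.0708, where 0 genes passed and 4216 had an unadjusted p under 0.05). It was not tested under a filter on the mean FPKM, where 7.35% of genes passed. The call was lost without control 1, 2 or 3 (limma adjusted p 0.0873 to 0.184; 5.4% of genes passed without control 1 and 0 without control 2 or 3) and, with the gene set kept, without ultrasound 2 or 3 (0.142 and 0.143). It shares 40.0% of its exonic bases in the GENCODE M21 annotation with Serbp1 on the opposite strand, an RNA-binding protein gene of far higher level. Serbp1 had 90.9 to 104 FPKM in the controls and 102, 66.1 and 60.8 FPKM in ultrasound 1, 2 and 3. Whether strand was used in counting is not given in the sources used here, and without it reads of the shared bases cannot be assigned to either gene. NK cells also express Il12rb2. The 7 NK cell markers summed to 66.1 to 162 FPKM in the controls and 249, 438 and 466 FPKM in ultrasound 1, 2 and 3. In ultrasound 1 most of that sum was Tyrobp, at 222 FPKM, which myeloid cells also express. The median marker differed from the control mean by -0.11 in ultrasound 1 and by 1.75 and 1.55 in ultrasound 2 and 3, in log2(FPKM + 1). Ncr1, a defining NK cell receptor, had 0.133 to 0.228 FPKM in the controls and 0.533, 5.85 and 5.05 FPKM in ultrasound 1, 2 and 3. Their part in the Il12rb2 values was not tested.

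Il6ra (NCBI Gene 16194), the ligand-binding chain for interleukin 6, had 40.3, 42.3 and 40.5 FPKM in the controls and 51.7, 44.0 and 53.3 FPKM in ultrasound 1, 2 and 3. On the FPKM as deposited, every ultrasound sample was above every control, as for 25.9% of all genes tested. The group means were 41.0 ± 1.06 and 49.7 ± 5.01 FPKM (SD, n = 3 each), a log2 difference of 0.27 with a standard error of 0.10 and a limma adjusted p of 0.126. The log2 difference was smaller with median-of-ratios size factors, at 0.14 (limma adjusted p 0.395), and with voom, at 0.16 (0.326). In the authors' deposited table it is 0.15, with a q of 0.489. Monocytes and macrophages express the same chain. Their 11 markers summed to 354 to 786 FPKM in the controls and 1900 to 3319 FPKM in ultrasound samples, with none at 0. The 8 neutrophil markers summed to 145 to 489 FPKM in the controls and 1776, 510 and 537 FPKM in ultrasound 1, 2 and 3. The part of these cells in the Il6ra values was not tested. An annotated antisense gene, Gm42809, shares 2.80% of the exonic bases of Il6ra.

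Il18r1 (NCBI Gene 16182), the ligand-binding chain for interleukin 18, had 25.7, 31.4 and 29.0 FPKM in the controls and 36.0, 20.7 and 18.6 FPKM in ultrasound 1, 2 and 3. As for Il7r, ultrasound 1 was above every control and ultrasound 2 and 3 were below every control. With all libraries the log2 difference was -0.24 with a standard error of 0.24 and a limma adjusted p of 0.498. Without ultrasound 1 it was -0.52 with a limma adjusted p of 0.00435. Il21r, at -0.24 and 0.0167, also passed the limma test in that comparison of 2 ultrasound with 3 control samples. These 2 were among 9 receptor genes tested there, where 53.6% of all genes passed. With the gene set of all libraries kept, Il12rb2 also passed, at 0.60 and a limma adjusted p of 0.00485, where 53.7% of all genes did.

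**Figure D2:**
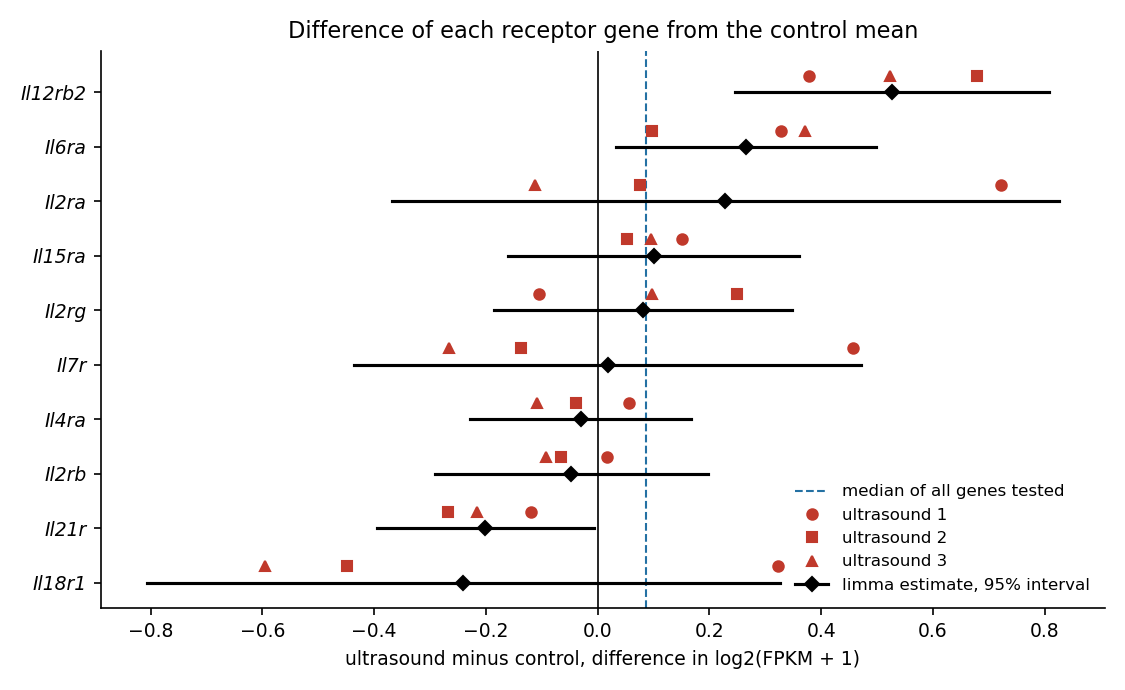
Difference of each receptor gene from the control mean in log2(FPKM + 1) (x axis), one row per gene, where black diamonds and lines are limma estimates over all libraries with 95% intervals, red markers the single ultrasound samples, and the dashed line the median of all genes tested, 0.09. For Il18r1, Il7r and Il2ra the 3 ultrasound samples spread over 0.72 to 0.92, and for Il12rb2, Il6ra and Il15ra all 3 lie to the right of 0.

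The ultrasound samples differed among themselves by gene. Il18r1 was 1.83 times as high in ultrasound 1 as in the mean of ultrasound 2 and 3, Il2ra 1.78 times and Il7r 1.58 times. The size of this gap on the log2(FPKM + 1) scale was 0.85, 0.74 and 0.66 for the 3 genes, against a median size of 0.28 over all genes tested. The other 7 receptor genes were below that median, among them Il2rg at -0.28 and Il12rb2 at -0.22, the 2 that were lower in ultrasound 1. This split was seen in the data and was not tested, and the labels name no batch. With a term for ultrasound 2 and 3, which sets ultrasound 1 alone against the controls, 0 of the 10 receptor genes passed in limma, 5 had an unadjusted p under 0.05, and 1.41% of all genes passed. Ultrasound 1 is then a lone sample, assumed to vary like the others.

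Receptors that pair with a chain outside the 10 genes were set beside that chain in each library, as a ratio of FPKM values that does not depend on library scaling. The pairs were chosen with the values of the 10 genes known, and no test was made. Such ratios can still vary with the mix of cells in a sample. The part of other cell types in these ratios was not tested. Il6ra pairs with Il6st, the signalling chain of the interleukin 6 family. Their ratio was 0.942, 0.847 and 0.904 in control 1, 2 and 3, against 1.34, 1.19 and 1.73 in ultrasound 1, 2 and 3, so Il6ra was the lower of the 2 in every control and the higher in every ultrasound sample. Il6st itself had 42.8, 49.9 and 44.8 FPKM in the controls and 38.7, 36.9 and 30.9 FPKM in ultrasound 1, 2 and 3 (limma adjusted p 0.0921).

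The ratio of Il18r1 to Il18rap, the accessory chain that completes the interleukin 18 receptor, was 1.44, 1.59 and 1.52 in control 1, 2 and 3, against 1.24, 0.728 and 0.866 in ultrasound 1, 2 and 3. The groups did not overlap for this ratio, although they did for Il18r1 alone. Il18rap had 17.9, 19.7 and 19.1 FPKM in the controls and 29.1, 28.4 and 21.4 FPKM in ultrasound 1, 2 and 3 (limma adjusted p 0.0806). The 2 genes lie 14507 bases apart on chromosome 1. The ratio of Il12rb2 to Il12rb1, the other chain of the interleukin 12 receptor, was 0.0880, 0.0843 and 0.0652 in control 1, 2 and 3, against 0.138, 0.186 and 0.148 in ultrasound 1, 2 and 3. Il12rb1 exceeded Il12rb2 in all 6 libraries, at 6.80 to 8.33 FPKM.

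Within the gamma chain family the ratios to Il2rg overlapped between the groups. The ratio of Il7r to Il2rg ranged from 0.235 to 0.283 among controls, against 0.387, 0.200 and 0.203 in ultrasound 1, 2 and 3. That of Il21r to Il2rg ranged from 0.220 to 0.250 among controls, against 0.233, 0.164 and 0.189 in ultrasound 1, 2 and 3. Il2ra stood at 0.0340 to 0.0460 of Il2rb among controls, against 0.0712, 0.0455 and 0.0399 in ultrasound 1, 2 and 3.

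**Figure D3:**
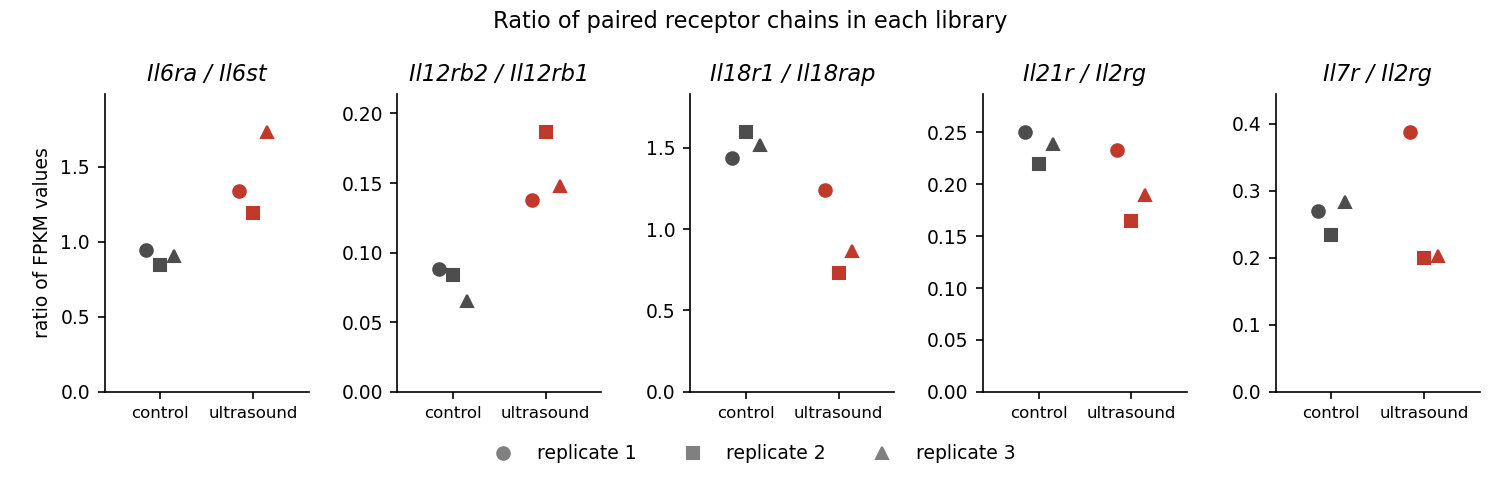
Ratio of the FPKM values of 2 receptor chains in each library (y axis from 0, one panel per pair), where grey points are control and red points ultrasound samples, with marker shape for the replicate number. The groups separate for Il6ra to Il6st, Il12rb2 to Il12rb1 and Il18r1 to Il18rap and overlap for the 2 ratios to Il2rg.

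The upstream sequences of the 3 genes whose groups do not overlap are shown, chosen after their values were seen. RefSeq windows were matched for 9 of the 10 genes by NCBI Gene number, with 12 windows in all. Il2rb has none in that table. The 250 bases before an annotated start of each gene are given 5′ to 3′ on the gene's strand. For Il12rb2 and Il21r the RefSeq gene extends past this start, to 67376293 on chromosome 6 and 125603252 on chromosome 7. Part of each of these 2 windows therefore lies within the gene. Capitals mark matches on either strand to a STAT motif, TTCNNNGAA, a FOXO motif, GTAAACA, or an AP-1 motif, TGANTCA, which do not overlap one another here. The windows are chr6:67376189-67376438 on the minus strand for Il12rb2, chr7:125603179-125603428 on the plus strand for Il21r and chr3:89913197-89913446 on the minus strand for Il6ra, all on GRCm38.p6.
Il12rb2: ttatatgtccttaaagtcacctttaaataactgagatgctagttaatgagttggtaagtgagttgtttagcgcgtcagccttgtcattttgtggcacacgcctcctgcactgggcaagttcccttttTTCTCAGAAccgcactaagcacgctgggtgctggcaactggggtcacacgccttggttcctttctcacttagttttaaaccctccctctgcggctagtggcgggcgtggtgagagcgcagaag
Il21r: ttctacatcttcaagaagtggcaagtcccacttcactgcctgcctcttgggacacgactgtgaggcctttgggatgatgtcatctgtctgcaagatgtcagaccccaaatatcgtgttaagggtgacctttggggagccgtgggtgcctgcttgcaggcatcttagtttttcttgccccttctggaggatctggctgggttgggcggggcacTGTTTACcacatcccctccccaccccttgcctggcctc
Il6ra: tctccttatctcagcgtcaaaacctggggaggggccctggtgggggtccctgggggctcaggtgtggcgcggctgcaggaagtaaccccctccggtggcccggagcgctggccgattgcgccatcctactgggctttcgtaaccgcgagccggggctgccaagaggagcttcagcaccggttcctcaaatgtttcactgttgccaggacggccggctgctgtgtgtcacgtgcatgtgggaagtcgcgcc

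The window of Il12rb2 holds 1 STAT match, starting at -123 relative to the start that the window precedes. That of Il21r holds 1 FOXO match, starting at -38 on the same count, which lies within the RefSeq extent of Il21r. The window of Il6ra holds none of the 3 motifs and is rich in CpG, with 18 against a median of 6 over all windows. A STAT match was also found before Il7r. Of 3 windows of Il18r1, 1 holds 2 STAT matches, and of 2 windows of Il15ra, 1 holds 1 AP-1 match. These windows of Il18r1 and Il15ra lie within the RefSeq extent of their genes. Of all 32851 windows of this length, 7.02% hold the STAT motif, 3.17% the FOXO motif and 6.75% the AP-1 motif. A match describes letters and is no measurement of binding.

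The other genes of these pathways were read from 5 lists, which hold 83 genes of the table, 69 of them tested. At an adjusted p under 0.05 in the limma fit, 10 of the 69 passed, 8 higher and 2 lower in ultrasound samples, or 14.5% against 8.11% of all genes. The median log2 difference was 0.15 over the 69 genes and 0.09 over all genes. With median-of-ratios size factors 6 passed, 3 higher and 3 lower, while over all genes the split of higher to lower went from 698 and 166 to 281 and 187.

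Of the cytokine genes, 4 of 12 in the table were expressed highly enough to test, and 1 of these passed, against 8.11% of all genes. Il27, a subunit of interleukin 27, was the 1 that passed, going from 0.524, 0.432 and 0.143 FPKM in the controls to 1.12, 2.04 and 2.58 FPKM in ultrasound 1, 2 and 3 (limma adjusted p 0.0384). Like Il12rb2 it entered the test only through the ultrasound samples, and it did not pass with median-of-ratios size factors or voom (limma adjusted p 0.0518 and 0.0607). Its partner Ebi3 had 3.27 to 4.16 FPKM in the controls and 4.90, 13.4 and 15.3 FPKM in ultrasound 1, 2 and 3 (limma adjusted p 0.0809). Il18, at 1.72 to 3.24 FPKM in the controls and 3.59 to 4.39 FPKM in ultrasound samples, and Il21 did not pass, with limma adjusted p of 0.0952 and 0.454. For Ebi3 and Il18, as for Il27, every ultrasound sample was above every control. The 7 dendritic cell markers summed to 299 to 648 FPKM in the controls and 314, 1041 and 925 FPKM in ultrasound 1, 2 and 3. The part of these cells, and of monocytes and macrophages, in the values of Il27, Ebi3 and Il18 was not tested. Il2, Il7 and Il15, cytokines of receptors above, stayed at or below 1.57 FPKM in every library and Il2 and Il7 below 1. Il4 and Il6 also stayed below 1 FPKM. Il12a and Il12b, the subunits of interleukin 12, were not tested, and their group means went opposite ways. Il12a had 0.363 to 0.762 FPKM in the controls and 0.892, 3.01 and 2.40 FPKM in ultrasound 1, 2 and 3. Il12b had 2.63, 0.650 and 0.520 FPKM in control 1, 2 and 3 and 0.388 to 0.490 FPKM in ultrasound samples. Control 1 was far above the rest, and control 2 and 3 lay close to the ultrasound samples.

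Of 26 other receptor chains in the table, 22 were tested and 5 passed, all higher in ultrasound samples, against 6.55% of all genes that passed as higher. They were Csf2ra and Csf2rb, the chains of the receptor for the myeloid growth factor GM-CSF, Tnfrsf1a and Tnfrsf1b, the tumour necrosis factor receptors, and Il10rb, a shared chain of the interleukin 10 family. Csf2rb had 16.7, 7.06 and 6.19 FPKM in the controls and 34.6, 31.7 and 42.3 FPKM in ultrasound 1, 2 and 3, a log2 difference of 1.88 with a standard error of 0.33 (limma adjusted p 0.0312). Tnfrsf1a had 19.6 to 23.0 FPKM in the controls and 32.3 to 43.5 FPKM in ultrasound samples, a log2 difference of 0.79 with a standard error of 0.13 (limma adjusted p 0.0304). Csf2ra, Il10rb and Tnfrsf1b did not pass with median-of-ratios size factors (limma adjusted p 0.0576, 0.0968 and 0.0654), upper-quartile factors (0.0510, 0.0893 and 0.0563) or voom (0.0516, 0.0845 and 0.0582). The summed markers of monocytes and macrophages and of neutrophils, given above for Il6ra, were also higher in every ultrasound sample than in every control. The part of these cells was not tested. Il27ra, Ifngr1 and Il17ra, the most abundant that did not pass, had limma adjusted p of 0.578, 0.0578 and 0.0688.

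Of 20 kinases, STATs and adaptors, 19 were tested and 3 passed, or 15.8% against 8.11% of all genes. Irs2, an adaptor that links the interleukin 4 receptor to PI3 kinase, fell the most of all 69 genes. It had 38.7, 43.1 and 39.8 FPKM in the controls and 16.8, 4.06 and 4.40 FPKM in ultrasound 1, 2 and 3, so every ultrasound sample was far below every control. The log2 difference was -2.40 with a standard error of 0.46 and a limma adjusted p of 0.0335. Myd88, the adaptor of the interleukin 1 and 18 receptors, rose from 43.8 to 48.8 FPKM in the controls to 65.1 to 69.4 FPKM in ultrasound samples (limma adjusted p 0.0304, and 0.0547 with median-of-ratios size factors). Gab2, a docking adaptor, rose to 3.51 ± 0.458 FPKM from a control mean of 1.25 ± 0.529 FPKM (SD, n = 3 each), with a limma adjusted p of 0.0312. The kinases that serve the gamma chain, Jak1 and Jak3, did not pass, with limma adjusted p of 0.199 and 0.260. Stat5a and Stat5b, the main STATs of interleukins 2, 7 and 15, had log2 differences of -0.06 and 0.04.

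**Figure D4:**
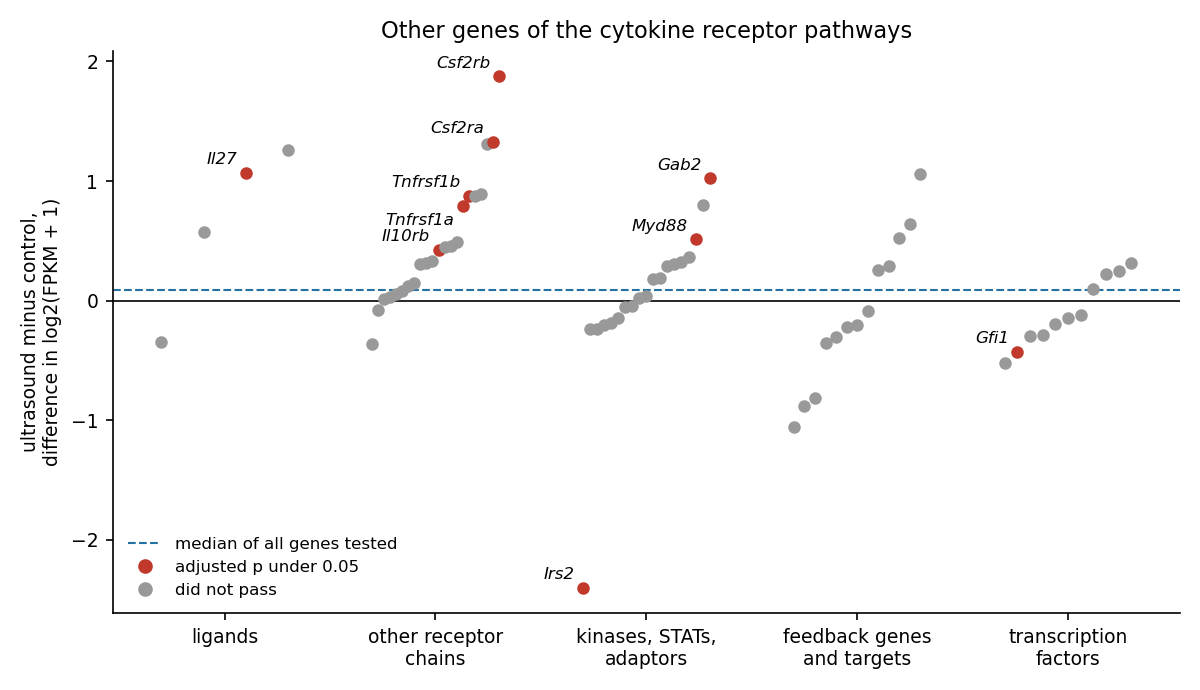
Difference between ultrasound and control samples in log2(FPKM + 1) (y axis) for the tested genes of 5 pathway lists, 1 point per gene, sorted within each list, where red points passed an adjusted p of 0.05 and are named, grey points did not, and the dashed line is the median of all genes tested. Irs2 at -2.40 is the lowest point and Csf2rb at 1.88 the highest.

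Of 14 feedback genes and targets, 13 were tested and 0 passed in the limma fit, where 8.11% of all genes passed. An unadjusted p under 0.05 was reached by 7 of the 13, against 31.2% of all genes. Socs1, an inhibitor of JAK kinases, came closest, with 38.2, 40.2 and 45.0 FPKM in the controls and 30.3, 13.8 and 16.8 FPKM in ultrasound 1, 2 and 3 (limma adjusted p 0.0575). Socs3 and Pim1 were low only in ultrasound 2 and 3. Socs3 had 170 to 193 FPKM in the controls, 177 in ultrasound 1 and 60.6 and 82.8 FPKM in ultrasound 2 and 3. Pim1 had 164 to 201 FPKM in the controls, 167 in ultrasound 1 and 72.8 and 94.5 FPKM in ultrasound 2 and 3. Over the 13 tested, 5 had a log2 difference above 0 and 8 below. Cish had 4.99, 5.84 and 8.10 FPKM in the controls and 13.1, 7.84 and 10.3 FPKM in ultrasound 1, 2 and 3. Of 11 transcription factors known to act on these receptor genes, 1 passed, or 9.09% against 8.11% of all genes. Gfi1, a repressor of Il7r, fell from 15.3, 15.7 and 15.2 FPKM in the controls to 11.5, 10.1 and 12.0 FPKM in ultrasound 1, 2 and 3, a log2 difference of -0.43 with a standard error of 0.09 (limma adjusted p 0.0440). Foxo1, an activator of Il7r, had 49.2 to 54.1 FPKM in the controls and 38.9 to 43.2 FPKM in ultrasound samples (limma adjusted p 0.0802), and Tbx21 and Eomes, which act on Il2rb, had limma adjusted p of 0.577 and 0.110.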

How the data were processed

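RNA-seq of sorted splenic CD8 T cells was available as 1 full table of the authors' comparison, with 3 control and 3 ultrasound samples. Its FPKM values per library are as the authors deposited them, already scaled to gene length and depth. HISAT2, HTSeq, DESeq2, R 3.2.0 and the build mm10 are named in the submitters' processing notes. Group means of normalized counts (a signal), the fold change ratio, the log2 fold change and the p-value and q-value columns are also the authors' deposited values, per the file headers. Strand use in counting is not given in the sources used here.

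The receptor genes and the gene lists were chosen with earlier results of these data known. Whole reads were recovered from the FPKM and the deposited group means: 100% of 31856 values came within 0.05 of a whole number. Genes reaching 1 FPKM in 3 or more libraries were tested with limma 3.58.1 (trend, robust; R 4.3.3) on log2(FPKM + 1), which understates changes of low genes, with two-sided p-values and Benjamini-Hochberg adjustment over all 10655 genes. The median log2 difference of all genes was 0.09 as deposited and moved to -0.02 under median-of-ratios size factors. The fit and the recovery were tested on simulated data. The libraries simulated for the fit held no split of ultrasound 1 from 2 and 3, so the fit was not tested under such a split. From each list, genes that passed are named, otherwise the 3 of highest level, and others were chosen after their values were seen. Some genes that this rule names are not reported here. Coordinates are from RefSeq GRCm38.p6 and exon overlaps from GENCODE M21, both on the mm10 assembly. Python 3.11.15, pandas 2.3.3, numpy 2.4.6, scipy 1.17.1 and matplotlib 3.10.9 were used. Deviations of same-numbered samples correlated at -0.04, 0.05 and 0.06, and the labels name no pairing. With 3 libraries per group these values cannot exclude one. Alternatives covered scaling, filters, pseudocount, robustness, voom on recovered reads, a replicate block, a term for ultrasound 2 and 3, the authors' values and each library left out. The filtered table was not used here.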

Additional observations from a re-analysis of the deposited data

How the results depend on the processing

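Il12rb2 kept its direction in all 20 alternatives that gave it a value and its call in 7. Against 1 receptor gene called, 0 were called with median-of-ratios size factors, upper-quartile factors, no filter, a filter on a mean FPKM of at least 1, and a term for ultrasound 2 and 3, and 2 in the authors' deposited table (Il12rb2 and Il21r). Among pathway genes, 10 passed in the main analysis, 6 under median-of-ratios size factors, 0 with every gene tested, 1 with a term for ultrasound 2 and 3, 26 in the authors' table and 27 at an adjusted p of 0.1. Over all genes the count was 864, and 468 with median-of-ratios size factors, 573 with voom on recovered reads, 0 without a filter (limma; 4216 had an unadjusted p under 0.05), 150 under a term for ultrasound 2 and 3, 2179 in the authors' table and 1962 at an adjusted p of 0.1. Leaving out 1 library gave 0 to 2 receptor genes (3 with the gene set kept), 0 to 44 pathway genes (46) and 0 to 5628 genes in all (5727). Without control 1 the latter was 571 (567). Without ultrasound 1 it was 5628, and without control 2, control 3, ultrasound 2 or ultrasound 3 it was 0 in limma, with 1945, 2137, 1971 and 1913 at an unadjusted p under 0.05. The term leaves ultrasound 1 as a lone sample, assumed to vary like the others. The cause was not tested.

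The replicate block gave 0 receptor genes, 0 pathway genes and 0 genes in all, with 3249 at an unadjusted p under 0.05. In the labels, same-numbered samples share only a number.

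Directions reversed for genes that had not passed, on the log2 scale. With median-of-ratios size factors, upper-quartile factors, voom and in the authors' table Il2rg was at -0.045, -0.032, -0.025 and -0.040, and Il7r at -0.11, -0.094, -0.089 and -0.073. With a term for ultrasound 2 and 3 Il2rb was at 0.016, Il2rg at -0.10, Il4ra at 0.056 and Il18r1 at 0.32. Leaving out 1 library gave -0.018 to 0.40 for Il2ra, -0.11 to 0.034 for Il2rb, -0.0036 to 0.17 for Il2rg, -0.20 to 0.16 for Il7r (-0.028 without control 2) and -0.074 to 0.0082 for Il4ra. Ratios of reads per length equal the ratios of FPKM and were not run separately. The table held no counts, so the planned count tests were not run. Il12rb2 rests on 140 to 463 reads a library, the fewest of the 10.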

Other observations

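Over all genes tested, those with the profile over the 6 libraries most like a receptor gene were found by Pearson's r of log2(FPKM + 1), as a description over libraries that share their groups. Il12rb2 was most like Dync1i2 and Fads1, each with r of 0.997, and 375 genes had r above 0.95 with it. Il18r1 was most like Rrp12 and Rybp, each with r of 0.997, among 235 genes above 0.95, and Il21r most like Ing2 and Rplp1, with r of 0.994 and 0.993, among 160. Il7r was most like Ift74 (r = 0.987), Il4ra like Zfp1 (0.993), Il6ra like Tmem38b (0.991), Il2ra like Abcb6 (0.988), Il15ra like Cfb (0.981) and Il2rb like Zfp59 (0.960). Il2rb had the fewest genes above 0.95, at 2.

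Among the receptor genes themselves, the profiles of Il12rb2 and Il21r ran opposite, with r of -0.97 over the 6 libraries, and those of Il7r and Il4ra ran together, with r of 0.88.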
